A study of Mus musculus with 6 samples.

Results

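The proteasome genes of E14.5 fetal liver (FL) cells from Pogz-/- embryos were compared with those of Pogz+/+ embryos. A gene was taken when its symbol begins with Psm, one of the letters a to g and a number, without the inducible core subunits Psmb8, Psmb9 and Psmb10, and when a probe set of the array names that gene alone. The rule found 46 of 18193 genes, and where a gene had several such probe sets the one brightest on average over 6 arrays was used. They are 14 subunits of the 20S core (7 alpha and 7 beta), 2 tissue-restricted core subunits, 17 subunits of the 19S regulatory particle (6 ATPases and 11 non-ATPases), 7 assembly chaperones, 4 activators and inhibitors of the core, and 2 genes whose symbols match but whose products are no subunits, Psmc3ip and Psme3ip1. Psme2 and Psme2b share a probe set and are therefore not among them.

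There were 3 Pogz-/- arrays and 3 Pogz+/+ arrays, whose labels call each one a biological replicate, and the text uses the genotypes Pogz-/- and Pogz+/+ for the labels Pogz-KO and Pogz-WT. Pogz encodes a zinc finger protein, and in Pogz-/- embryos a floxed block of its exons had been deleted in every tissue through a parental β-actin Cre, while Pogz+/+ embryos kept it. The targeted line came from 2 embryonic stem cell clones, and which of them these embryos descend from is not stated. Both groups were congenic on C57BL/6 after more than 10 generations of backcrossing, and both consisted of whole FL suspensions at the same embryonic stage. No source used here says whether an array held 1 embryo or a pool of litter mates.

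The proteasome is the protease that destroys ubiquitin-tagged proteins. Its core is a barrel in which alpha rings guard the entry and beta rings carry the cutting sites. The regulatory particle that caps it recognises the tag, removes it, and unfolds the substrate with a ring of ATPases. Maturing red cells, which make up most of the fetal liver, clear part of their protein content through ubiquitin and proteasomes. When proteasome activity falls, the transcription factor NRF1 (Nfe2l1) is known to raise the subunit genes together, through an antioxidant response element. Its core was searched for here by the loose letters TGANNNNGC, in which N is any base.

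The deposited intensities were compared on the log2 scale, so a difference of 1 is a doubling, and levels of different probe sets are not set against each other. Replicate 1 of Pogz+/+ stood apart: over all probe sets it correlated with the other arrays at r of 0.79 to 0.81, against 0.88 to 0.91 among the other 5. The ratio of the 3′ to the 5′ actin control, which climbs as RNA breaks down, was 3.72 to 4.09 in Pogz-/- and 5.50, 6.63 and 52.3 in Pogz+/+, the last in replicate 1. A 3′ to 5′ difference between the genotypes therefore remained without that array, and its part in the results was not tested. Of 4 Pogz probe sets none was called lower in Pogz-/- (limma, 5 arrays), and the brightest read 9.16, 9.22 and 9.33 in Pogz-/- and 9.17, 9.03 and 8.95 in Pogz+/+. A pair of dimmer ones was higher in Pogz-/- by 2.05 and 1.90 on the log2 scale without being called (adjusted p of 0.0913 and 0.173, limma, 5 arrays), and the fourth differed by −0.41. The files do not place these probe sets on the gene, so they may measure exons that the deletion spared, and the genotypes are given as labelled. Erythroid markers averaged 11.11 to 11.35 on the log2 scale in Pogz-/- and 11.69 to 11.96 in Pogz+/+, and 4 of 7 measured were called lower. Hepatoblast markers averaged 9.12 to 10.20 in Pogz-/- and 9.86 to 10.35 in Pogz+/+ (1 of 6 lower), and granulocyte markers 11.34 to 11.50 in Pogz-/- and 11.00 to 11.33 in Pogz+/+ (2 of 7 higher). Calls among markers of macrophages (0 of 6), B cells (0 of 4), T and NK cells (1 of 4, higher) and germ cells (0 of 5) were few, and no probe set was listed at 0. Despite its 1 call, the T and NK list had a negative median log2 fold change (−0.87, 5 arrays). Only 1 of its 4 markers reached the median signal of all probe sets. The medians were −0.61 for B cells, −0.17 for macrophages and 0.13 for germ cells. In such whole tissue, fewer cells of a type and less RNA per cell cannot be told apart, and the part of cell makeup in the values below was not tested.

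The question for each gene was whether its signal differed by genotype. Over all 6 arrays, 0 of the 46 genes passed an adjusted p under 0.05 (limma, Benjamini-Hochberg over 18193 genes), nor did any gene at all (0.00%). The lowest adjusted p of a proteasome gene was 0.326, for Psma4, and 8 of the 46 had an unadjusted p under 0.05, against 13.1% of all genes. With limma's trend and robust options the same 6 arrays again gave 0 of 46, and 18 genes higher (0.0989%) and 4 lower (0.0220%) in all.

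Without Pogz+/+ replicate 1, and with trend and robust, 8 of the 46 genes were called. Psma4, Psma7, Psmb1 and Psmb2 rose in Pogz-/-, which is 4 of 46 beside 2.41% of all genes called higher. Psma6, Psmc2, Psmc4 and Psmc3ip fell, again 4 of 46 beside 2.07% called lower. Proteasome genes are bright, and among the genes at or above the median signal, where 45 of the 46 lie, the shares were 4.67% higher and 3.98% lower. The other 38 were not called. The calls rest on 2 Pogz+/+ arrays, and limma without trend and robust called 0 genes on the same 5 arrays. With any 1 of the 5 arrays left out as well, 0 to 3 of the 46 were called higher and 0 to 6 lower, while the shares of all genes were 0.401% to 2.15% higher and 0.154% to 2.22% lower.

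All 4 genes that rose are core subunits, and both 19S subunits that fell are ATPases. By class, the 14 core genes gave 4 higher and 1 lower, the 17 genes of the 19S particle 0 higher and 2 lower, and the 11 activators and assembly chaperones 0 in either direction; whether the classes differ was not tested. The median log2 fold change was 0.24 for the core, −0.01 for the 19S particle and 0.18 for the assembly chaperones. It was 0.06 for all 46 genes, beside −0.10 for all 18193 and −0.001 for the 9097 at or above the median signal. A positive sign was held by 28 of the 46, or 60.9%, against 42.4% of all genes. That share was not counted among genes at or above the median signal alone.

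**Figure D1:**
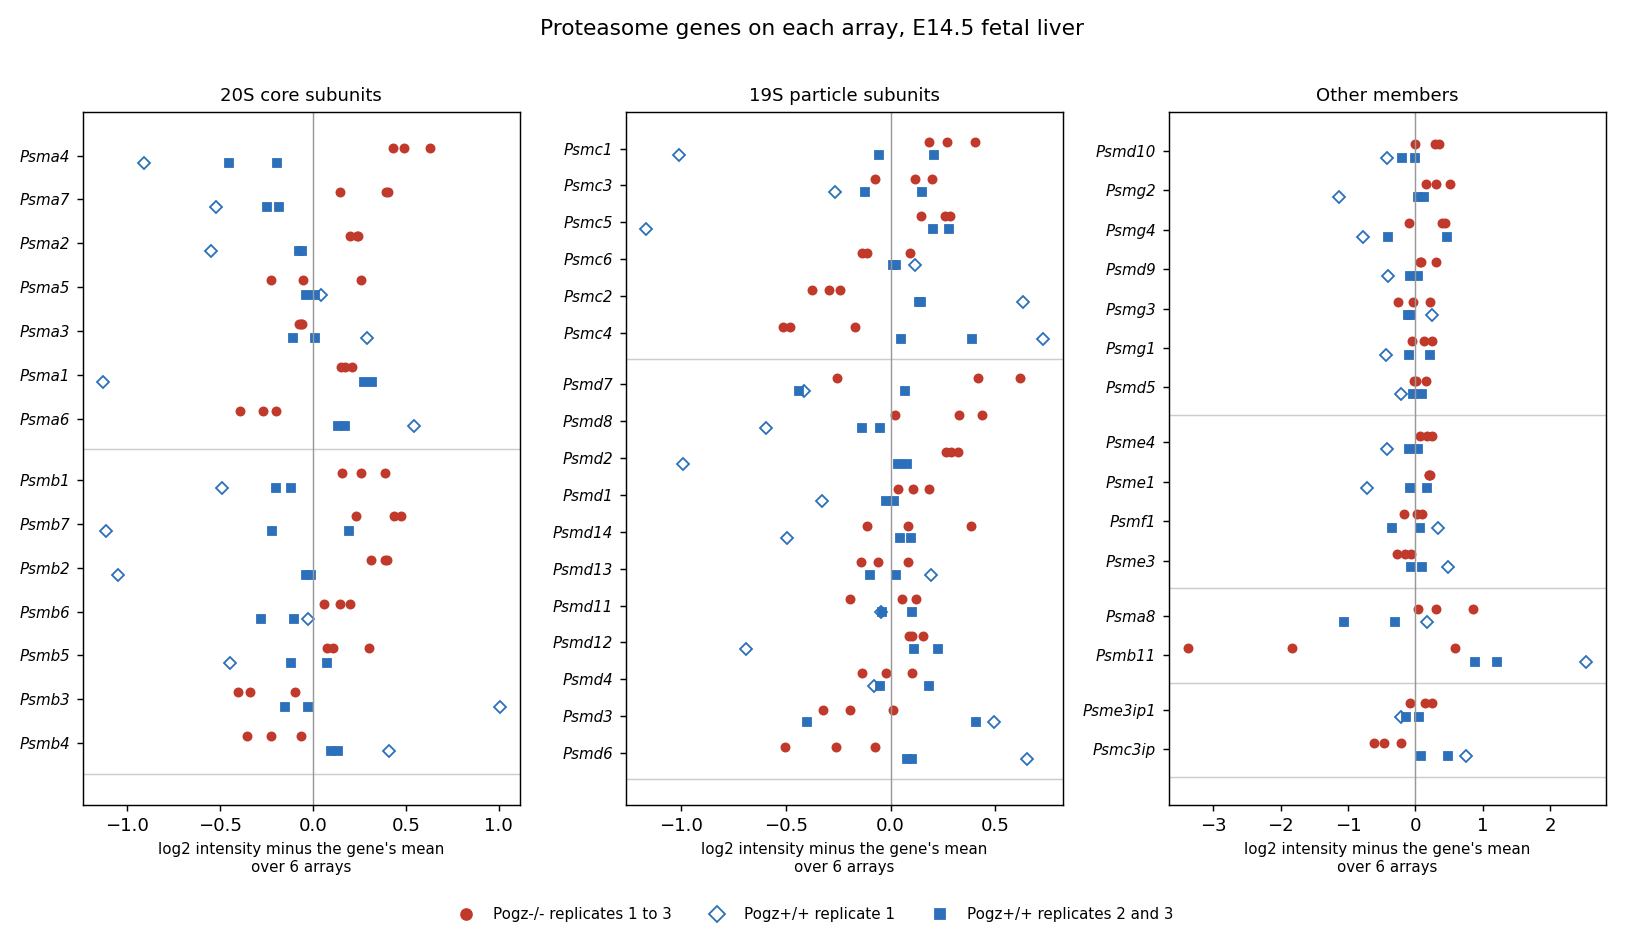
Log2 intensity of each of the 46 genes on each array, as its difference from the gene's own mean over 6 arrays, with Pogz-/- as red circles above Pogz+/+ in blue and Pogz+/+ replicate 1 as an open diamond. The third panel has a wider axis for Psmb11. In Psma4, Psma7, Psmb1 and Psmb2 the diamond is the lowest point and all red points lie above all blue ones; in Psma6, Psmc2, Psmc4 and Psmc3ip the diamond is the highest point and the red points lie below.

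Psma4, a subunit of the alpha ring, had the lowest adjusted p of the 46 genes in both tests. It read 10.35, 10.49 and 10.29 in Pogz-/- replicates 1 to 3 and 8.95, 9.66 and 9.40 in Pogz+/+ replicates 1 to 3, an order kept for every gene below. Every Pogz-/- array was above every Pogz+/+ array, and replicate 1 was the lowest of the Pogz+/+ arrays. The log2 fold change was 0.84 ± 0.12 (SE), or 1.79-fold, with an adjusted p of 0.00296 on 5 arrays (limma), and 1.04 on all 6. Of the 46 genes it alone passed both the adjusted p and the 1.5-fold cutoff of the study's methods upward, where 1.73% of all genes did.

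Psma7 forms the same ring and read 10.73, 10.97 and 10.98 in Pogz-/- and 10.06, 10.40 and 10.33 in Pogz+/+. The arrays did not overlap (log2 fold change 0.53 ± 0.10, SE; adjusted p = 0.0165, limma, 5 arrays). A second probe set of Psma7 gave a difference of 1.05, also called (adjusted p = 0.00165 over 45037 probe sets, limma).

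Psma6, the third alpha subunit called, went the other way. It read 12.34, 12.14 and 12.27 in Pogz-/- and 13.08, 12.67 and 12.71 in Pogz+/+, with no overlap and replicate 1 the highest (log2 fold change −0.44 ± 0.08, SE; adjusted p = 0.0120, limma, 5 arrays). This probe set carries the suffix _x_at, which the manufacturer gives to probes that may also bind other transcripts. The brighter of 2 Psma6 probe sets without such a suffix read 10.90, 10.83 and 10.62 in Pogz-/- and 10.35, 10.89 and 10.92 in Pogz+/+ and was not called (−0.12), nor was the dimmer one (0.47).

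Among the other alpha subunits, Psma2 read 11.28, 11.24 and 11.28 in Pogz-/- and 10.49, 10.98 and 10.97 in Pogz+/+. Its arrays did not overlap, but it did not pass the test (log2 fold change 0.30, adjusted p = 0.0720, limma, 5 arrays). Psma2 was called higher after quantile normalization (adjusted p = 0.0457, limma, 5 arrays) and after median centring (0.00365). The same held when only genes at or above the median signal were tested, and under no other alternative at 0.05. Psma5, Psma3 and Psma1 differed by 0.00, −0.02 and −0.12.

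Of the beta ring, which holds the active sites, Psmb1 and Psmb2 rose. Both are beta subunits without a cutting site of their own. Psmb1 read 11.78, 11.65 and 11.55 in Pogz-/- and 10.90, 11.19 and 11.28 in Pogz+/+, a difference of 0.43 ± 0.09 (SE; log2; adjusted p = 0.0238, limma, 5 arrays). Psmb2 read 10.67, 10.59 and 10.66 in Pogz-/- and 9.22, 10.23 and 10.26 in Pogz+/+, a difference of 0.39 ± 0.09 (SE; log2; adjusted p = 0.0347, limma, 5 arrays). Neither overlapped, and in both replicate 1 was the lowest Pogz+/+ array, by the wider margin in Psmb2. Psmb1 had 2 dimmer probe sets with log2 fold changes of −0.46 and −0.71, neither called. On both of them every Pogz-/- array was below every Pogz+/+ array.

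The catalytic subunits Psmb5, Psmb6 and Psmb7 were not called. Their log2 fold changes were 0.18, 0.32 and 0.39 on 5 arrays, with adjusted p of 0.408, 0.0969 and 0.203 (limma). Psmb6 read 10.79, 10.65 and 10.74 in Pogz-/- and 10.57, 10.32 and 10.49 in Pogz+/+. Its Pogz-/- arrays were all above, with replicate 1 the highest of the Pogz+/+ arrays, unlike in the 4 genes that rose. Psmb5 and Psmb7 were also above without overlap, but in both replicate 1 was the lowest Pogz+/+ array (9.87 and 7.30). In Psmb5 the nearest arrays of the genotypes both read 10.39.

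Psmb4 and Psmd4 lie near Pogz on chromosome 3. In the RefSeq gene order of GRCm38.p6, Psmb4 is the first protein-coding gene downstream of Pogz, on the other strand, with 1 pseudogene between them, and Psmd4 is 12 places away. An allele made in embryonic stem cells of another strain can keep a flank of that strain's genome around the target after backcrossing, and whether a flank reached these genes was not examined. Psmb4, a beta subunit, read 11.99, 11.70 and 11.83 in Pogz-/- and 12.46, 12.19 and 12.15 in Pogz+/+. All Pogz-/- arrays were lower, but it did not pass (log2 fold change −0.34 ± 0.09, SE; adjusted p = 0.0726, limma, 5 arrays). It was called lower when only genes at or above the median signal were tested (adjusted p = 0.0344, limma) and without Pogz-/- replicate 1 (0.0195), and over all alternatives its adjusted p ran from 0.0034 to 0.828. The _x_at suffix applies here too, and the Psmb4 probe set without it went the other way, with 11.31, 11.20 and 11.13 in Pogz-/- and 10.25, 10.88 and 11.08 in Pogz+/+ (log2 fold change 0.23). Psmd4, a ubiquitin receptor of the 19S particle, read 10.16, 10.04 and 10.28 in Pogz-/- and 10.10, 10.13 and 10.37 in Pogz+/+, so the groups overlapped (log2 fold change −0.08 ± 0.11, SE; adjusted p = 0.751, limma, 5 arrays).

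The 6 ATPases of the 19S base unfold the substrate and push it into the core. Psmc2 read 12.47, 12.34 and 12.42 in Pogz-/- and 13.35, 12.85 and 12.86 in Pogz+/+ (log2 fold change −0.44 ± 0.07, SE; adjusted p = 0.00771, limma, 5 arrays). The groups were apart, with replicate 1 at the top of Pogz+/+. As in Psma6 and Psmb4, this is an _x_at probe set. The next brightest Psmc2 probe set, without the suffix, read 10.65, 10.92 and 10.93 in Pogz-/- and 9.37, 10.59 and 10.55 in Pogz+/+, a log2 fold change of 0.26 that was not called, so the direction for Psmc2 depends on the probe set.

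Psmc4 read 11.17, 10.82 and 10.86 in Pogz-/- and 12.07, 11.39 and 11.72 in Pogz+/+. The groups did not overlap (log2 fold change −0.61 ± 0.13, SE, or 1.52-fold lower; adjusted p = 0.0206, limma, 5 arrays). Its probe set comes with the _a_at suffix, which marks alternative transcripts of 1 gene, and the second Psmc4 probe set gave −0.06, not called. Psmc1, Psmc3, Psmc5 and Psmc6 had log2 fold changes of 0.21, 0.07, −0.01 and −0.07, none called. In Psmc1 and Psmc5, Pogz+/+ replicate 1 read 7.92 and 8.08, while the other 5 arrays read 8.87 to 9.33 and 9.39 to 9.53.

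None of the 11 non-ATPases was called. The largest moderated t belonged to Psmd6, Psmd8 and Psmd2. Psmd6, a scaffold of the lid, read 10.90, 10.46 and 10.71 in Pogz-/- and 11.62, 11.07 and 11.05 in Pogz+/+, below without overlap (log2 fold change −0.37, adjusted p = 0.121, limma, 5 arrays). A second Psmd6 probe set, nearly as bright, overlapped and was not called (−0.16). It read 11.00, 10.88 and 10.89 in Pogz-/- and 10.47, 11.03 and 11.14 in Pogz+/+. Psmd8, another lid subunit, read 9.91, 9.79 and 9.49 in Pogz-/- and 8.87, 9.33 and 9.42 in Pogz+/+, above without overlap (0.35, adjusted p = 0.183, limma, 5 arrays). Psmd2, on which ubiquitin shuttles dock, read 10.11, 10.13 and 10.17 in Pogz-/- and 8.85, 9.92 and 9.88 in Pogz+/+ (0.24, adjusted p = 0.225, limma, 5 arrays). Psmd14, the subunit that removes the ubiquitin chain, differed by 0.05, and the rest lay between −0.18 for Psmd3 and 0.45 for Psmd7.

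**Figure D2:**
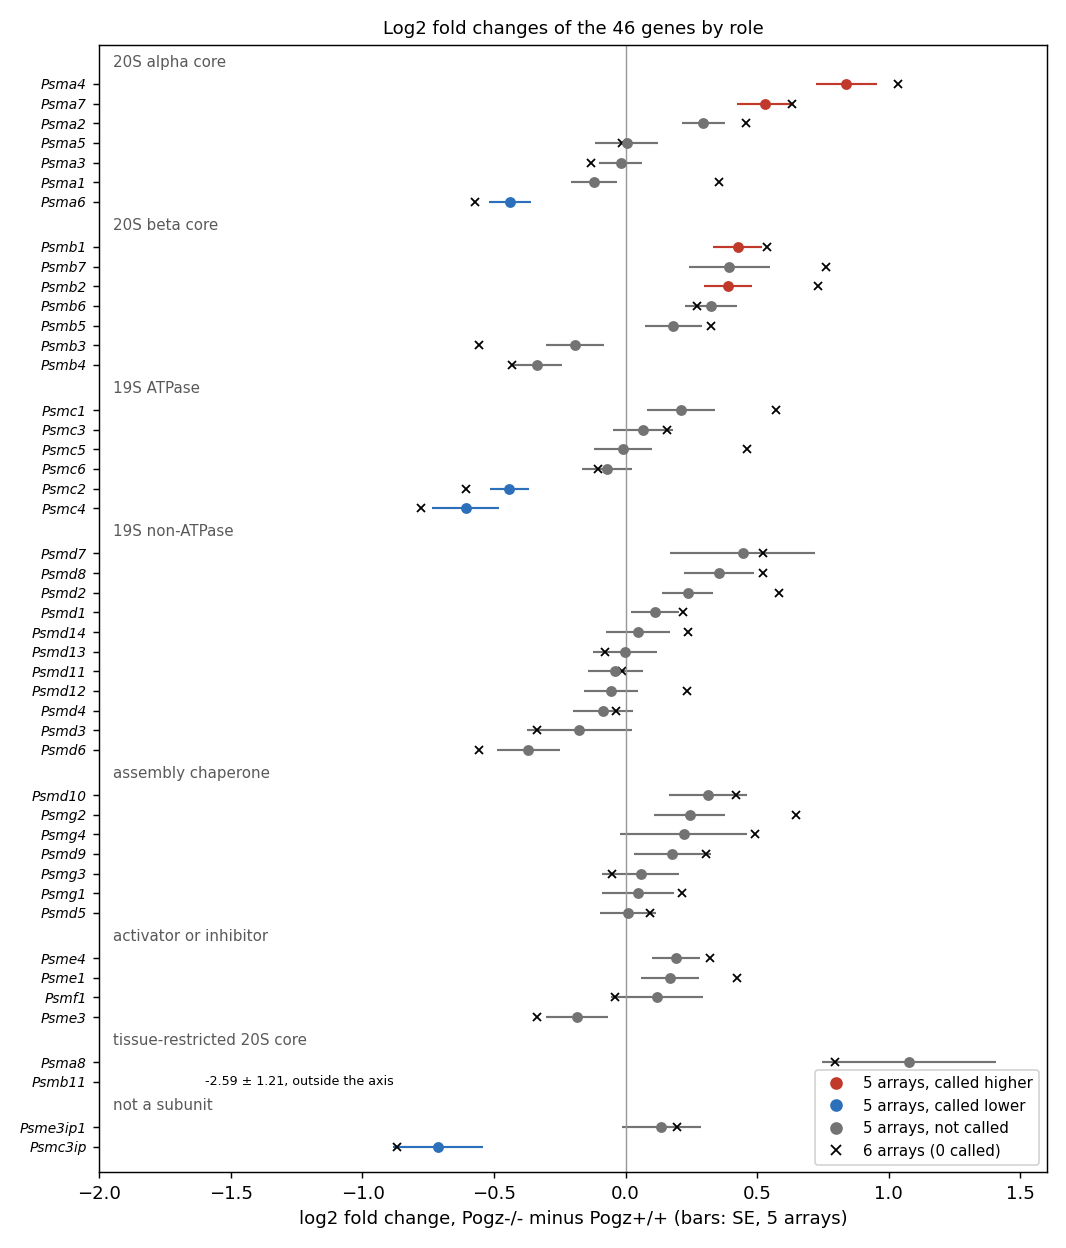
Log2 fold change (Pogz-/- minus Pogz+/+) of the 46 genes by role, with circles and standard errors for the 5 arrays without Pogz+/+ replicate 1 and crosses for all 6 arrays. The 4 red circles are Psma4, Psma7, Psmb1 and Psmb2 and the 4 blue ones Psma6, Psmc2, Psmc4 and Psmc3ip, and in these 8 the cross lies farther from 0 than the circle.

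All 7 assembly chaperones, which help build the core (Psmg1 to Psmg4) and the base (Psmd5, Psmd9, Psmd10), had a positive log2 fold change on 5 arrays, from 0.01 in Psmd5 to 0.31 in Psmd10, and none was called. Psmd10 read 8.78, 8.72 and 8.43 in Pogz-/- and 8.01, 8.42 and 8.24 in Pogz+/+ (adjusted p = 0.293, limma, 5 arrays). Psmg2 read 9.15, 8.94 and 8.80 in Pogz-/- and 7.50, 8.76 and 8.68 in Pogz+/+ (0.24, adjusted p = 0.376, limma, 5 arrays), and Psmd9 read 8.14 to 8.39 in Pogz-/- and 7.67 to 8.12 in Pogz+/+ (0.18). All 3 were above without overlap on these probe sets. A dimmer Psmd9 probe set was below without overlap (−1.05, adjusted p = 0.0840 over probe sets, limma, 5 arrays). The dimmest Psmd9 probe set overlapped (0.63). The signs of this class changed with the scaling: after quantile normalization Psmd5, Psmg1 and Psmg3 were just below 0, the lowest at −0.02.

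The activators open the alpha ring in place of the 19S particle. Psme4, the large single-chain activator, read 11.20, 11.37 and 11.30 in Pogz-/- and 10.71, 11.16 and 11.04 in Pogz+/+ (0.19, adjusted p = 0.293, limma, 5 arrays). Psme1, a subunit of the interferon-induced activator, read 9.94, 9.93 and 9.93 in Pogz-/- and 9.00, 9.64 and 9.89 in Pogz+/+ (0.17). Both were above without overlap and not called. The Psme4 probe set has the suffix _s_at, and the brightest one without it gave 0.52, called when _x_at and _s_at probe sets were left out (adjusted p = 0.0412, limma, 5 arrays). Psme3, the nuclear activator, read 9.33, 9.12 and 9.24 in Pogz-/- and 9.88, 9.49 and 9.34 in Pogz+/+ (−0.18), below without overlap but with the nearest arrays of the genotypes at 9.33 and 9.34, and Psmf1, the inhibitor, differed by 0.12 with overlap.

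The tissue-restricted core subunits were dim or uneven. Psma8, the testis alpha subunit that replaces Psma7, read 7.08, 6.26 and 6.53 in Pogz-/- and 6.39, 5.92 and 5.17 in Pogz+/+, overlapping on all 6 arrays and not called (log2 fold change 1.08 ± 0.33, SE; adjusted p = 0.103, limma, 5 arrays). It was called higher after median centring (adjusted p = 0.0200, limma, 5 arrays) but not after quantile normalization (0.0706). Psma8 was also called higher when only genes at or above the median signal were tested (0.0450, limma). Psmb11, the thymus beta subunit, was the gene below the median signal. It read 0.15, 1.69 and 4.10 in Pogz-/- and 6.05, 4.73 and 4.41 in Pogz+/+. Every Pogz-/- array was lower, with a wide spread among them, and its log2 fold change of −2.59 had an SE of 1.21 (adjusted p = 0.285, limma, 5 arrays).

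Of the genes that share only the symbol, Psmc3ip, a meiotic recombination factor, fell. It read 8.29, 8.03 and 7.89 in Pogz-/- and 9.25, 8.58 and 8.98 in Pogz+/+, without overlap (log2 fold change −0.71 ± 0.17, SE, or 1.64-fold lower; adjusted p = 0.0378, limma, 5 arrays). Its probe set has the suffix _s_at, shared by related transcripts, and the second one gave −0.07, not called. Psme3ip1, which binds Psme3, read 8.43, 8.21 and 8.54 in Pogz-/- and 8.08, 8.16 and 8.35 in Pogz+/+ (0.14). Psmc4 and Psmc3ip are the 2 that passed the 1.5-fold cutoff downward, beside 1.00% of all genes.

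Counted over all 6 arrays with no fit, 16 of the 46 genes had every Pogz-/- array above every Pogz+/+ array and 8 had every one below. Among all genes 10.8% were above and 16.3% below. The 16 are 34.8% of the 46, and the 8 are 17.4%. These shares were not counted among genes at or above the median signal alone.

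The side on which a gene fell went with the side on which replicate 1 stood among the Pogz+/+ arrays. In 27 of the 46 genes replicate 1 was below both other Pogz+/+ arrays, in 18 above both and in 1 between them, against 33.4% of all genes below and 49.7% above. All 4 called higher are among the 27, and all 4 called lower are among the 18. Replicate 1 was not in the fit behind those calls, but it entered the choice of probe set. How often the same holds among all called genes was not counted. To keep arrays apart, replicate 1 minus replicate 2 of Pogz+/+ was set against the Pogz-/- mean minus Pogz+/+ replicate 3, which share no array. Across the 46 genes the correlation was −0.52 (Pearson) and −0.58 (Spearman), and with replicates 2 and 3 exchanged −0.54 and −0.50. It was −0.59 in the 44 genes without Psma8 and Psmb11, −0.30 across the 9097 genes at or above the median signal and −0.11 across all 18193. Over all 99 probe sets of the 46 genes it was weaker, at −0.15 (Pearson) and −0.38 (Spearman), and with replicates 2 and 3 exchanged −0.21 and −0.32. These are descriptions across genes, which share the same arrays and are not independent. The actin ratio ran the same way, lowest in Pogz-/- and highest in replicate 1, and its part in the pattern was not tested.

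**Figure D3:**
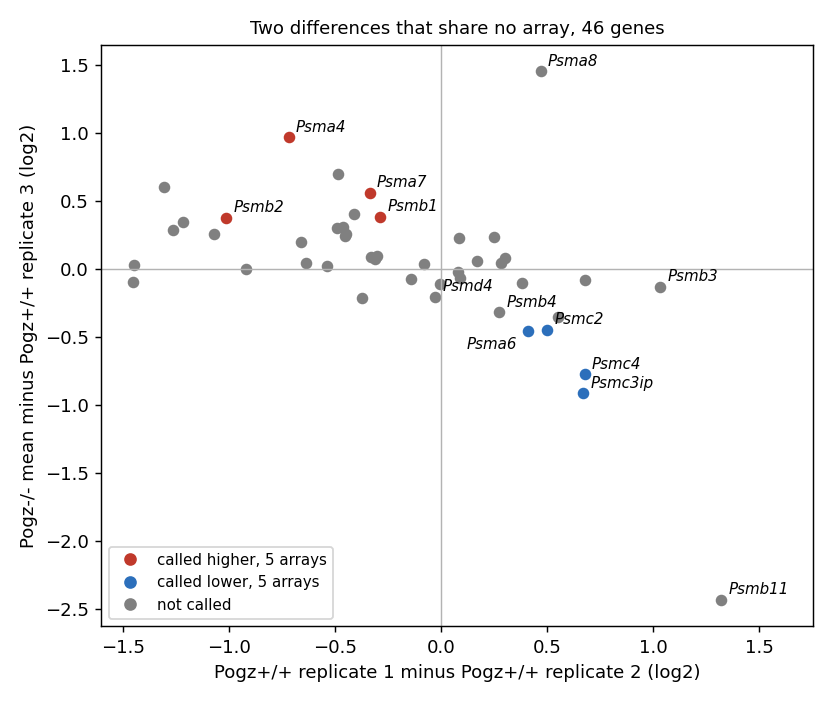
Each point is 1 of the 46 genes, with Pogz+/+ replicate 1 minus replicate 2 on the x axis and the Pogz-/- mean minus Pogz+/+ replicate 3 on the y axis, both on the log2 scale. The 4 genes called higher lie at the upper left and the 4 called lower at the lower right (r = −0.52), with Psma8 and Psmb11 far from the rest.

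Probe sets of the same gene did not always move together. The 46 genes have 99 probe sets, of which 6 were called higher and 4 lower on 5 arrays, beside 1.45% and 1.22% of all 45037. Psmb2 and Psmc3ip, called among genes, were not called on the same probe sets in this larger test (adjusted p of 0.0525 and 0.0563, limma). Of the 26 genes with more than 1, 15 had log2 fold changes of both signs, and none had calls in both directions. In 22 genes at least 2 probe sets were at or above the median signal, and in 9 of these the signs still differed. In 17 of the 22, replicate 1 was above the mean of the other Pogz+/+ arrays on 1 probe set and below it on another.

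Psmb3, a beta subunit, was the clearest case, chosen after its values were seen. Its brighter probe set read 10.78, 10.47 and 10.53 in Pogz-/- and 11.88, 10.85 and 10.72 in Pogz+/+ (log2 fold change −0.19, not called). The other read 10.57, 10.64 and 10.90 in Pogz-/- and 8.28, 9.95 and 9.86 in Pogz+/+, and was called higher (0.80 ± 0.12, SE; adjusted p = 0.00621 over probe sets, limma, 5 arrays). Replicate 1 was the highest of all 6 arrays on one and the lowest on the other. Psmg2 likewise had a dimmer probe set that was called higher, with 8.49, 8.56 and 8.17 in Pogz-/- and 4.42, 7.79 and 7.26 in Pogz+/+ (0.88, adjusted p = 0.0361 over probe sets, limma, 5 arrays), and Psma3 a dimmer one that was called lower (−0.91).

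By suffix, the 8 _x_at probe sets of the 46 genes had a median log2 fold change of −0.39, with 2 called lower. These suffixes hold all 4 falls: _x_at stands for 3 genes, of which Psma6 and Psmc2 fell, _s_at for 3, of which Psmc3ip fell, and _a_at for 14, of which Psmc4 fell and Psma7 and Psmb1 rose. The plain _at suffix stands for 26 genes, of which Psma4 and Psmb2 rose and 0 fell. With the _x_at and _s_at probe sets left out, 5 of 46 were called higher and 1, Psmc4, lower, beside 2.52% and 1.48% of all genes. The fifth call, next to the 4 genes that rose, was Psme4.

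**Figure D4:**
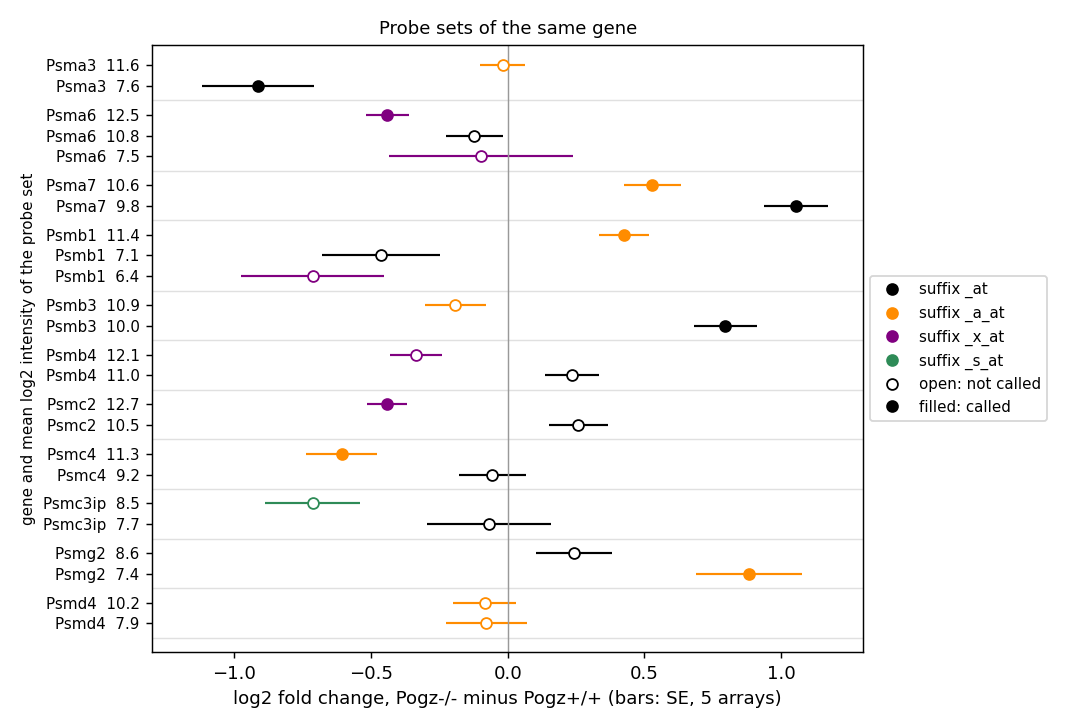
Log2 fold change and standard error (5 arrays, Pogz-/- minus Pogz+/+) of each probe set at or above the median signal, for genes with several probe sets that were called, hold a called probe set or lie near Pogz, with the mean log2 intensity beside the name, colours for the suffix and filled circles for an adjusted p under 0.05 over 45037 probe sets. In Psmb1, Psmb3, Psmb4 and Psmc2 the probe sets lie on opposite sides of 0, and in Psma7 both lie to the right.

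Scaling set the balance of calls. The deposited arrays share a trimmed mean but not a median, and over all genes the median change was −0.10 on the log2 scale without rescaling, −0.01 with quantile normalization and 0.18 with median centring. After quantile normalization 5 of the 46 were higher and 2 lower (2.18% and 1.46% of all genes). After median centring 17 were higher and 0 lower (10.1% and 0.550%). Psma4, Psma7, Psmb1 and Psmb2 were called higher under all 3 scalings, and none of the 4 genes called lower was called lower after median centring.

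Genes that work with the proteasome were measured for 22 of 31 listed symbols, of which 3 were called higher and 3 lower on 5 arrays (limma), beside 2.41% and 2.07% of all genes, and 0 on all 6 arrays. Pomp, which matures the core, read 11.00, 11.05 and 10.97 in Pogz-/- and 9.37, 10.54 and 10.58 in Pogz+/+ and rose (log2 fold change 0.45 ± 0.09, SE; adjusted p = 0.0152, limma). Ecpas, which holds core and cap together, rose by 0.76 and Rad23b, a ubiquitin shuttle, by 0.42. Usp14, the deubiquitinase that docks on the 19S particle, read 9.71, 9.79 and 9.68 in Pogz-/- and 10.84, 10.13 and 10.42 in Pogz+/+ and fell (−0.55 ± 0.11, SE; adjusted p = 0.0200, limma). Txnl1, a thioredoxin-like protein bound to the 19S particle, fell by 0.30, and Ubqln2, another shuttle, by 0.44. After median centring none of these 3 falls was called, and after quantile normalization Ecpas, Rad23b and Txnl1 were not (adjusted p of 0.0617, 0.0531 and 0.347, limma). Replicate 1 was the lowest Pogz+/+ array in Pomp and Rad23b, which rose, and the highest in Usp14 and Txnl1, which fell, but it was the lowest in Ubqln2, which fell, and lay between the others in Ecpas, which rose. Usp14 was read on an _x_at probe set and Rad23b on an _s_at one, each 1 of 4 for its gene. Txnl1 was read on an _a_at probe set, 1 of 6. Ecpas had 4 probe sets, Ubqln2 3 and Pomp 1. Values of the other probe sets of these genes are not given here.

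Of the inducible core subunits, Psmb8, Psmb9 and Psmb10 had log2 fold changes of −0.56, −0.24 and 0.06, none called (limma, 5 arrays). The factors that drive subunit transcription were not called either. Nfe2l1 read 7.12, 7.43 and 7.37 in Pogz-/- and 7.51, 7.35 and 7.21 in Pogz+/+, which overlap (0.03, adjusted p = 0.966, limma), and Nfe2l2 differed by 0.18.

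Promoters are shown to place the letters TGANNNNGC beside the values. They are those of Psma4 and Psma7, which rose, of Psmc4, the 19S subunit with the largest fall, and of Psmb4, the neighbour of Pogz. Each is the 300 bases around a RefSeq start (GRCm38.p6), written along the gene's strand, and capitals mark the letters TGANNNNGC or CCAAT on either strand, which overlap in none of them. Psma4, at chr9:54950609-54950908 on the plus strand, has TGANNNNGC at 2 places, and Psma7, at chr2:180042415-180042714 on the minus strand, has each motif 1 time. Psmb4, at chr3:94886909-94887208 on the minus strand, has TGANNNNGC 1 time, and Psmc4, at chr7:28050043-28050342 on the minus strand, has neither.
Psma4: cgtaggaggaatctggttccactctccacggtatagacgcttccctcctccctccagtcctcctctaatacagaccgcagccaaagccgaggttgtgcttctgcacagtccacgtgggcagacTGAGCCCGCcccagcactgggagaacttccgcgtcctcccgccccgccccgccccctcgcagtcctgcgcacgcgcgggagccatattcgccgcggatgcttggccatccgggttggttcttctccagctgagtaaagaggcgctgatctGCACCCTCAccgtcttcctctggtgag
Psma7: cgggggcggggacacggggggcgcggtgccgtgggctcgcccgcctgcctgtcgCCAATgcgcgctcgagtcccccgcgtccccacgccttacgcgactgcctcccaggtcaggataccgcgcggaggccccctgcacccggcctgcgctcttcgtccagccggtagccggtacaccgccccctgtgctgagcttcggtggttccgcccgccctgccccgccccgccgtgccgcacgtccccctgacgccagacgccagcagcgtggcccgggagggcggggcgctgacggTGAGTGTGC
Psmb4: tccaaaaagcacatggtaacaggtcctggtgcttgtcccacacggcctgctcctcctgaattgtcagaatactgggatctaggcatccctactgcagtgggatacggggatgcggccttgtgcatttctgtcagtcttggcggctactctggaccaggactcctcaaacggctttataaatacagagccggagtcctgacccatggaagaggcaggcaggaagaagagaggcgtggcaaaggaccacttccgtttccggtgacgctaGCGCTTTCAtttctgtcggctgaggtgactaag
Psmc4: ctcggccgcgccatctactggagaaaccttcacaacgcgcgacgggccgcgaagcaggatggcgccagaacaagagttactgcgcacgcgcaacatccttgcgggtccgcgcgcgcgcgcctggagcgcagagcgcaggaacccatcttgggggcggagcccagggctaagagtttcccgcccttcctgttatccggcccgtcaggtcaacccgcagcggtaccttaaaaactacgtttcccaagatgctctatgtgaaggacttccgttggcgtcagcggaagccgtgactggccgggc

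Of the 46 genes, 38 matched the promoter table by gene ID, and 22 of these (57.9%) hold TGANNNNGC at a listed start, against 45.0% of 27025 genes with promoters of the same length. CCAAT stood in 15 (39.5%), against 41.1%. Of the genes called, Psmb1 and Psmb2 had no listed promoter. TGANNNNGC was in both of the other genes called higher and in 3 of 4 called lower. A match of these letters is no evidence of binding.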

How the data were processed

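RNA of E14.5 FL cells, 3 samples from Pogz-/- and 3 from Pogz+/+ embryos, was hybridised to Affymetrix mouse arrays after 3′ IVT labelling. Per the submitters' processing notes, the authors' deposited intensity values come from Affymetrix Expression Console, with version and method not given in the sources used here. The values are linear and share a 2% trimmed mean of 150.0 per array, while their medians run from 29.7 to 31.6 in Pogz-/- and 36.0 to 54.3 in Pogz+/+. The number of arrays limits the precision. Arrays were grouped by the genotype in their labels.

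Log2 was taken with no pseudocount. After 64 control probe sets were left out, 45037 were tested; 34945 name 1 gene in the platform annotation, 932 several and 9160 none. Each of 18193 genes was represented by its probe set with the highest mean. Genotype was fitted with limma 3.58.1 (R 4.3.3), two-sided, with Benjamini-Hochberg adjustment over all genes or all probe sets and a threshold of 0.05. There were 2 tests: all 6 arrays with plain eBayes, and 5 arrays without Pogz+/+ replicate 1 with trend and robust. The calculations were tested on simulated data with independent values and no array that stands apart, which does not test the calls made here. Genes were named by a rule: every called member, the 3 with the largest moderated t in each role, the neighbours of Pogz, the tissue-restricted subunits and the symbols that are no subunits; others were named after their values were seen. The members, lists and tests were chosen with earlier results of these data known. Alternatives were median centring, quantile normalization, leaving out dim genes, the mean of all probe sets, a replicate block, other limma settings, the methods' t-test, other thresholds and leaving out each array; leaving out _x_at and _s_at probe sets was added after seeing the data. Promoters and gene order came from RefSeq tables of GRCm38.p6.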

Additional observations from a re-analysis of the deposited data

How the results depend on the processing

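Over all 6 arrays, the counts of 0 of the 46 genes called higher and 0 called lower were the same under every alternative run. The median log2 fold change of the 46 genes, 0.23 there, was 0.69 after median centring, 0.12 with the mean of all probe sets of a gene, and 0.061 to 0.29 with 1 array left out, the lowest without Pogz+/+ replicate 1. On 5 arrays that median, 0.06, was 0.33 after median centring, 0.00016 with the mean of all probe sets, 0.12 without _x_at and _s_at probe sets, and 0.028 to 0.10 with 1 array left out.

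The 4 genes called higher on 5 arrays became 17 after median centring (10.1% of all genes), 7 when only genes at or above the median signal were tested (7.61%), 2 with the mean of all probe sets (0.638%), 0 with plain limma, 0 with the methods' t-test and 1 at 1.5-fold. The 4 called lower became 2 after quantile normalization (1.46%), 0 after median centring (0.550%), 0 with the mean of all probe sets (0.379%), 0 with plain limma, 0 with the methods' t-test, 1 without _x_at and _s_at probe sets (1.48%) and 2 at 1.5-fold (1.00%). With 1 array left out there were 0 to 3 higher and 0 to 6 lower: 3 and 6 without Pogz-/- replicate 1, 1 and 2 without replicate 2, 1 and 0 without replicate 3, 1 and 0 without Pogz+/+ replicate 2, and 0 and 0 without Pogz+/+ replicate 3, where a lone Pogz+/+ array is assumed to vary like the others. Psma4 was called in all of these but the last. The causes were not tested.

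Single genes changed sign in a few settings. With the mean of all probe sets Psmb1 was at −0.25, Psmc1 at −0.85, Psmd2 at −1.03 and Psmd9 at −0.081. Without _x_at and _s_at probe sets Psmb4 was at 0.23 and Psmc2 at 0.26, by construction from another probe set. After median centring Psmd4 was at 0.19 and Psme3 at 0.087, and with 1 array left out Psmd4 lay between −0.20 (without Pogz+/+ replicate 2) and 0.035 (without Pogz+/+ replicate 3).

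Same-numbered arrays did not deviate together (correlations of 0.004, −0.009 and −0.01). Because Pogz+/+ replicate 1 stood apart from its group, these values cannot show whether the replicate numbers pair samples. The labels do not say so either. With the replicate number as a block, 4 of the 46 were called higher and 6 lower on 5 arrays, beside 3.11% and 3.13% of all genes, and 0 on all 6. Psmb4 and Psmd6 were the added falls (adjusted p of 0.0034 and 0.0084, limma). On 5 arrays the block leaves Pogz-/- replicate 1 without a partner, so it does not enter the fold change.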
